A study of Homo sapiens with 6 samples.

Results

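Krüppel-like factors (KLFs) were followed in slow-cycling and rapid-cycling cells of MDA-MB-231, an established human triple-negative breast cancer line grown in culture. The set is the 10 genes named KLF2, KLF3, KLF4, KLF5, KLF6, KLF7, KLF9, KLF10, KLF11 and KLF13 in the deposited tables, which list 58735 genes. All 10 passed the filter on low counts and were tested among 15881 genes. The wild-type cells were stained with PKH26, a membrane dye diluted at each division, and chased for 12 days. The brightest 1% were sorted as slow-cycling cells (SCC). Rapid-cycling cells (RCC) were sorted at a dye level that the protocol calls moderate and the sample annotation calls low. Each group holds 3 libraries from biological replicates of the 1 line. No other allele or agent is named, and dye retention is the only separation of the groups.

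KLFs bind GC-rich and CACCC-type DNA elements through a block of zinc fingers at the carboxyl end, and differ in the amino-terminal part that recruits cofactors. KLF2, KLF4, KLF5, KLF6 and KLF7 are mainly known as activators, KLF3 as a repressor that recruits CtBP, and KLF9, KLF10, KLF11 and KLF13 as repressors that recruit SIN3 and histone deacetylases. Several KLF mRNAs are induced by serum, shear stress, TGF-beta or glucocorticoid, and KLF4 is known in epithelia both for slowing the cell cycle and for stem cell states.

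Of the 10 members, 4 were higher in SCC and 0 were lower (edgeR quasi-likelihood test, Benjamini-Hochberg adjusted p under 0.05). The 4 were KLF4, KLF9, KLF10 and KLF11. Over all tested genes 1.69% were called higher and 0.378% lower (2.07% in either direction). Before adjustment, 8 members had p under 0.05 with SCC higher and 0 with SCC lower, beside 11.4% of all genes with SCC higher. DESeq2 called 6 members higher and 0 lower, and its share over all genes was not counted. Fitted log2 fold changes were positive for 9 of the 10, with a median of 0.48 over the members and 0.00 over all tested genes. For 8 members no SCC library overlapped the RCC range, in each case with SCC above RCC; 14.4% of tested genes had that pattern, and 27.8% were apart in either direction.

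**Figure D1:**
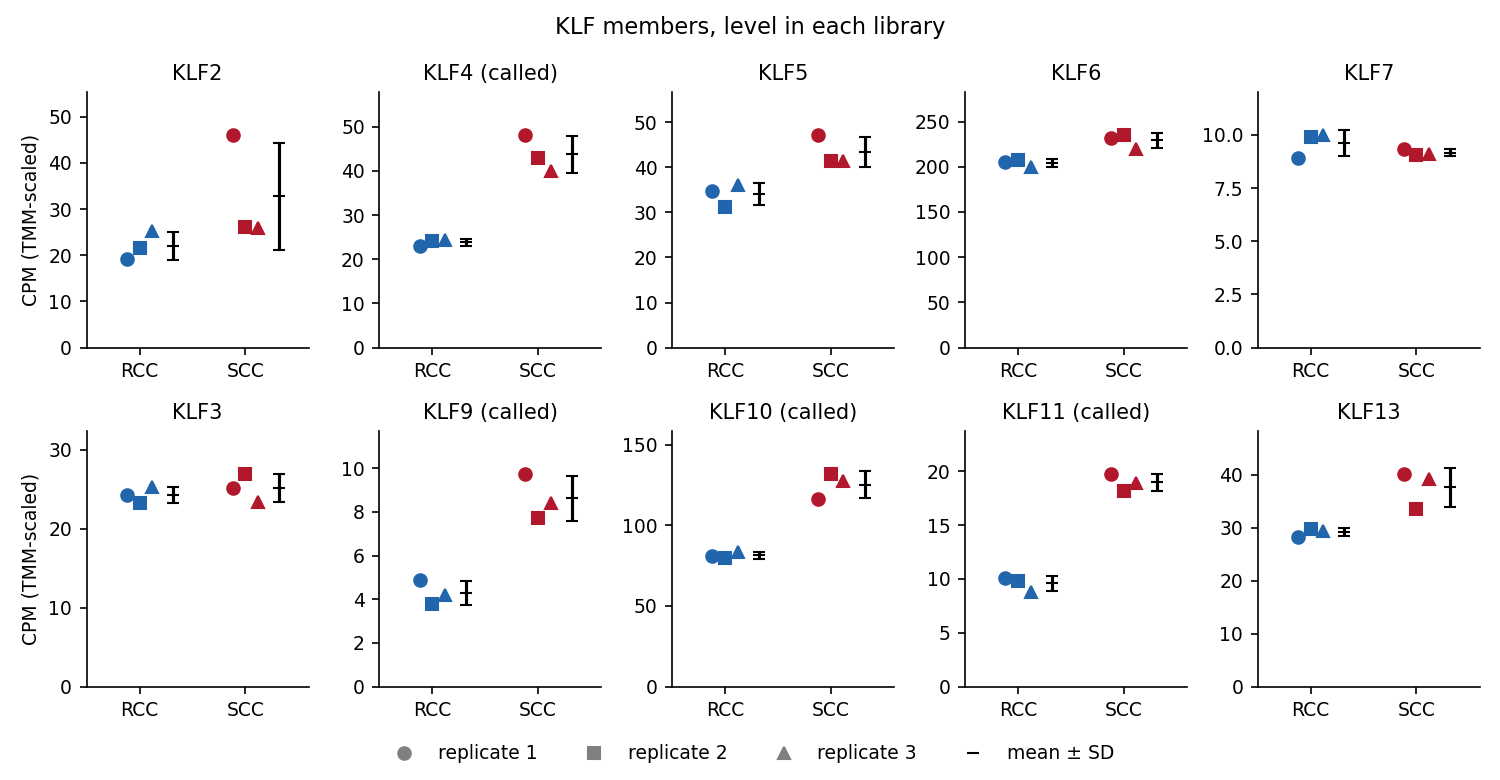
Counts per scaled library total (CPM) of each of the 10 KLF members in the 3 SCC and 3 RCC libraries, 1 point per library with the group mean ± SD, each panel on its own axis from 0. SCC and RCC points are apart for every member but KLF3 and KLF7, and 1 SCC library of KLF2 lies far above the other 5.

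Library totals ran from 17655855 to 27831824 counts. SCC replicate 1 stood apart: set against the other SCC libraries, chi-square over its degrees of freedom was 24.7 and 18.6, and it was 3.17 to 4.08 for the remaining within-group pairs. Across 15874 genes, which are not independent replicates, Spearman's rho between GC content and the log2 difference from the other libraries of the group was 0.608 for SCC replicate 1, -0.509 and -0.332 for SCC replicates 2 and 3, and -0.168 to 0.199 for the RCC libraries. The libraries set against SCC replicates 2 and 3 include SCC replicate 1, so the 2 negative values are not separate from its own. For results on the members, values without this library or with an offset for GC content are given where they change a call. Of markers of the line, VIM (153 and 150 FPKM, fragments scaled by transcript length and library total, in SCC and RCC) and EGFR (61.8 and 60.8 FPKM) were abundant, while ESR1 (0.025 and 0.033 FPKM) and CDH1 (0.025 and 0.035 FPKM) were near 0. Of the other markers listed as low or absent in the line, ERBB2 was at 8.25 and 7.23 FPKM and EPCAM at 1.71 and 1.98. Summed FPKM of 8 leukocyte markers was 0.334 to 1.18 in SCC and 0.367 to 0.930 in RCC, and that of 6 endothelial markers was 0.620 to 0.676 and 0.548 to 0.718. That of 6 fibroblast markers was 2.81 to 3.34 in SCC and 2.30 to 2.70 in RCC, with 2 of the 6 tested and COL1A1 at a log2 fold change of 0.50 (edgeR adjusted p = 0.124). PTPRC, the 1 leukocyte marker tested, drew 53, 5 and 15 counts in SCC and 4, 3 and 10 in RCC. Its log2 fold change was 1.84 (edgeR adjusted p = 0.206). The part of these differences in the KLF results was not tested.

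RefSeq windows of 250 bases before to 50 after a transcription start (GRCh38.p14) were used for 8 members, in 13 windows. For 4 members the bases of a window before its first GENCODE 29 exon are printed 5′ to 3′ on the gene's strand, because these genes are higher in SCC (KLF4, KLF9, KLF11) or vary most between libraries (KLF2). Capitals mark matches on either strand to any of 9 motifs. The positions are chr9:107489770-107490019 (minus strand) for KLF4, chr9:70414658-70414907 (minus strand) for KLF9, chr2:10043971-10044174 (plus strand) for KLF11 and chr19:16324576-16324816 (plus strand) for KLF2. Those of KLF4 and KLF11 lie within the annotated gene span but in no exon, since a longer transcript starts upstream, and those of KLF9 and KLF2 lie before the gene.
KLF4: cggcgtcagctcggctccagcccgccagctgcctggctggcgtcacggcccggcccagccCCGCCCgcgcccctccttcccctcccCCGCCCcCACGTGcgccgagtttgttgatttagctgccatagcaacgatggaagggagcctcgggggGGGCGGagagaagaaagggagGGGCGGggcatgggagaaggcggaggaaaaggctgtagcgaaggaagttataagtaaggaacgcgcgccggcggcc
KLF9: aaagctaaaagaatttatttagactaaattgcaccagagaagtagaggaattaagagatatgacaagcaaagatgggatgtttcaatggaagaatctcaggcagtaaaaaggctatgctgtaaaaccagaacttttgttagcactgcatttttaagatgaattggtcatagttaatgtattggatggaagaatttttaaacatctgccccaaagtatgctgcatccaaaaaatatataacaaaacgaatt
KLF11: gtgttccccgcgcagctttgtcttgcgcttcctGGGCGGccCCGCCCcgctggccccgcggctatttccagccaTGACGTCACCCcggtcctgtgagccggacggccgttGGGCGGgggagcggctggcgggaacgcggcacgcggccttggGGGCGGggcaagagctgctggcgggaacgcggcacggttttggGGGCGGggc
KLF2: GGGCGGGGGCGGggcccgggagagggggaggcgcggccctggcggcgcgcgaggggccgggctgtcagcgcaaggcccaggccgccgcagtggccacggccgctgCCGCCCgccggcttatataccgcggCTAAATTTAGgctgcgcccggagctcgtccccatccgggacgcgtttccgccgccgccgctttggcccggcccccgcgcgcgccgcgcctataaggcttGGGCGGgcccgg

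The KLF4 stretch holds GC boxes (GGGCGG) and an E-box (CACGTG), a site for bHLH factors such as MYC and USF. In KLF11 a cyclic AMP response element (TGACGTCA), the site of CREB and ATF factors, lies 176 to 169 bases before the start, overlapped by a CACCC match at its end. KLF2 carries a match to the MEF2 consensus 120 to 111 bases before the start (CTAAATTTAG). The KLF9 window holds no match and has 32.7% GC, against 69.0% in KLF4, 75.3% in the KLF11 window printed and 80.7% in KLF2.

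No window of KLF3 or KLF10 was used, so the member counts below leave out KLF10, which was called higher in SCC. Motifs near the starts of KLF3 and KLF10 were not examined. Set against all 35116 RefSeq windows, an AP-1 site (TGANTCA) was in 0 of the 13 member windows and in 7.71% of all windows. The CRE was in 1 member window and 1.85% of all windows. E-boxes were in 4 member windows, of KLF4, KLF6, KLF7 and KLF11, and in 7.26% of all. GC boxes were in 8 windows of 7 members and in 45.0% of all windows, and CACCC in 7 windows of 4 members and in 59.9%. The MEF2 consensus was in 1 window (KLF2; 2.99% of all), the CArG box in 1 (KLF7; 1.29%), the NF-kB consensus in 0 (5.91%) and the glucocorticoid receptor palindrome in 0 (0.390%). Motif matches are descriptions of these letters and do not show binding, and GC boxes and CACCC matches can overlap.

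Among the activators, KLF4 was the one called higher. KLF4 (ENSG00000136826, GRCh38 chr9:107484852-107490482, minus strand) is a reprogramming factor and an inducer of the cell cycle inhibitor CDKN1A. Its CPM, on library totals scaled by the trimmed mean of M-values (TMM), was 48.2, 43.0 and 40.0 in SCC and 23.0, 24.2 and 24.4 in RCC. The lowest SCC library was well above the highest RCC library. Mean CPM was 43.7 ± 4.15 in SCC and 23.9 ± 0.78 in RCC (SD, n = 3 each). The fold was 1.83 (95% interval 1.59 to 2.11; log2 0.87, SE 0.092; edgeR adjusted p = 4.7e-04). With the GC offset log2 was 0.79 (edgeR adjusted p = 3.1e-06), and KLF4 was called in all 17 alternative fits. In bulk libraries, more cells with KLF4 mRNA and more KLF4 mRNA per cell cannot be told apart, and the same holds for every gene here.

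KLF2 (ENSG00000127528, chr19:16324817-16327874, plus strand), known for quiescence in lymphocytes and endothelium, had 1 high library. Its CPM was 46.1, 26.2 and 26.0 in SCC and 19.3, 21.6 and 25.2 in RCC. SCC replicate 1 lay far above the other libraries, and the lowest SCC value was only just above the highest RCC value. Log2 fold change was 0.58 (95% interval 0.14 to 1.03), which missed the threshold (edgeR adjusted p = 0.162). Without SCC replicate 1 it was 0.25 (adjusted p = 0.153), and with the GC offset 0.26 (adjusted p = 0.145). The GC content of KLF2 transcripts is 65.9%, the highest of the members. The range over the fits that leave out 1 library each was 0.25 to 0.71.

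KLF5 and KLF6 had smaller differences. KLF5 (ENSG00000102554, chr13:73054976-73077542, plus strand), an activator of proliferation in epithelia, had 47.3, 41.5 and 41.5 CPM in SCC and 34.8, 31.3 and 36.1 in RCC. KLF6 (ENSG00000067082, chr10:3775996-3785281, minus strand), a widely expressed early response factor, had 232.2, 235.5 and 220.0 CPM in SCC and 205.1, 207.9 and 199.7 in RCC. Neither pair of groups overlapped. Log2 fold change was 0.35 for KLF5 (95% interval 0.15 to 0.55; edgeR adjusted p = 0.0788). For KLF6 it was 0.17 (95% interval 0.03 to 0.30; edgeR adjusted p = 0.185). Both passed with the GC offset, KLF5 at 0.42 (adjusted p = 0.0101) and KLF6 at 0.17 (adjusted p = 0.0389), and both passed without SCC replicate 1, at 0.29 (adjusted p = 0.0275) and 0.16 (adjusted p = 0.0433).

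KLF7 (ENSG00000118263, chr2:207074137-207167267, minus strand), best known from neurons, was the one member with a negative estimate. Its CPM was 9.35, 9.05 and 9.11 in SCC and 8.91, 9.89 and 10.01 in RCC, and the groups overlapped. The log2 fold change was -0.06, with a 95% interval from -0.32 to 0.19 (edgeR adjusted p = 0.778). KLF3 (ENSG00000109787, chr4:38664196-38701042, plus strand), the CtBP-recruiting repressor of the set, had 25.1, 27.0 and 23.4 CPM in SCC and 24.3, 23.3 and 25.3 in RCC. These groups overlapped as well, with a log2 fold change of 0.05 and a 95% interval from -0.15 to 0.26 (edgeR adjusted p = 0.770). The KLF3 estimate was -0.01 (adjusted p = 0.949) without SCC replicate 2. The intervals leave room for changes of either sign, so they do not show that KLF3 and KLF7 are equal in the groups. KLF3 shares 266 exonic bases with the opposite-strand KLF3-AS1, which drew 48 counts over the 6 libraries.

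Of the 4 SIN3-recruiting repressors in the set, KLF9, KLF10 and KLF11 were higher in SCC. KLF10 and KLF11, also called TIEG1 and TIEG2, are TGF-beta-inducible factors. KLF10 (ENSG00000155090, chr8:102648779-102655902, minus strand) had 116.1, 132.0 and 127.5 CPM in SCC and 81.2, 79.5 and 83.7 in RCC. Every SCC library was far above every RCC library. The fold was 1.54 (95% interval 1.38 to 1.71; log2 0.62, SE 0.072; edgeR adjusted p = 0.0010). KLF10 was the tightest of the 4 called members by standard error, and SCC replicate 1 was its lowest SCC library.

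KLF11 (ENSG00000172059, chr2:10042849-10054836, plus strand) had 19.8, 18.1 and 18.9 CPM in SCC and 10.1, 9.84 and 8.78 in RCC. The groups were widely separated, with means of 18.9 ± 0.81 and 9.58 ± 0.71 CPM (SD, n = 3 each). The fold was 1.97 (95% interval 1.68 to 2.32; log2 0.98, SE 0.11; edgeR adjusted p = 6.0e-04). KLF10 and KLF11 were called in all 17 alternative fits. Their log2 fold changes with the GC offset were 0.65 (adjusted p = 6.8e-07) and 1.00 (adjusted p = 7.4e-06). KLF11 shares 416 exonic bases with the opposite-strand AC104794.4, which drew 0 counts, and the strand setting of the counting is not given in the sources used here.

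KLF9 (ENSG00000119138, chr9:70384597-70414624, minus strand), a target of the glucocorticoid and thyroid hormone receptors, had the largest fitted fold of the 10 and low counts. It drew 263, 151 and 177 counts in SCC and 112, 79 and 75 in RCC. That is 9.76, 7.72 and 8.39 CPM in SCC and 4.87, 3.78 and 4.20 in RCC, with no overlap. The fold was 2.02 (95% interval 1.58 to 2.57; log2 1.01, SE 0.16; edgeR adjusted p = 0.0080). The call was lost without RCC replicate 2 (log2 0.92, adjusted p = 0.0587), without RCC replicate 3 (log2 0.99, adjusted p = 0.0532) and in the 3 limma fits on FPKM. It held in the other 12 of 17 alternatives.

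KLF13 (ENSG00000169926, chr15:31326855-31435665, plus strand), a regulator of lymphocyte cytokine genes, had 40.2, 33.4 and 39.3 CPM in SCC and 28.3, 29.8 and 29.4 in RCC. The groups did not overlap. Log2 fold change was 0.37 (95% interval 0.17 to 0.57), just short of the threshold (edgeR adjusted p = 0.0710), and 0.32 without SCC replicate 1 (adjusted p = 0.0210). With the GC offset it was 0.26 (adjusted p = 0.0536).

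With SCC replicate 1 left out, 7 of the 10 members were called higher, beside 3.93% of the genes tested there. The added members were KLF5, KLF6 and KLF13. With the GC offset 6 were called higher, adding KLF5 and KLF6, beside 3.45% of genes, and the members' median log2 fold change was 0.34. No alternative fit called any member lower.

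**Figure D2:**
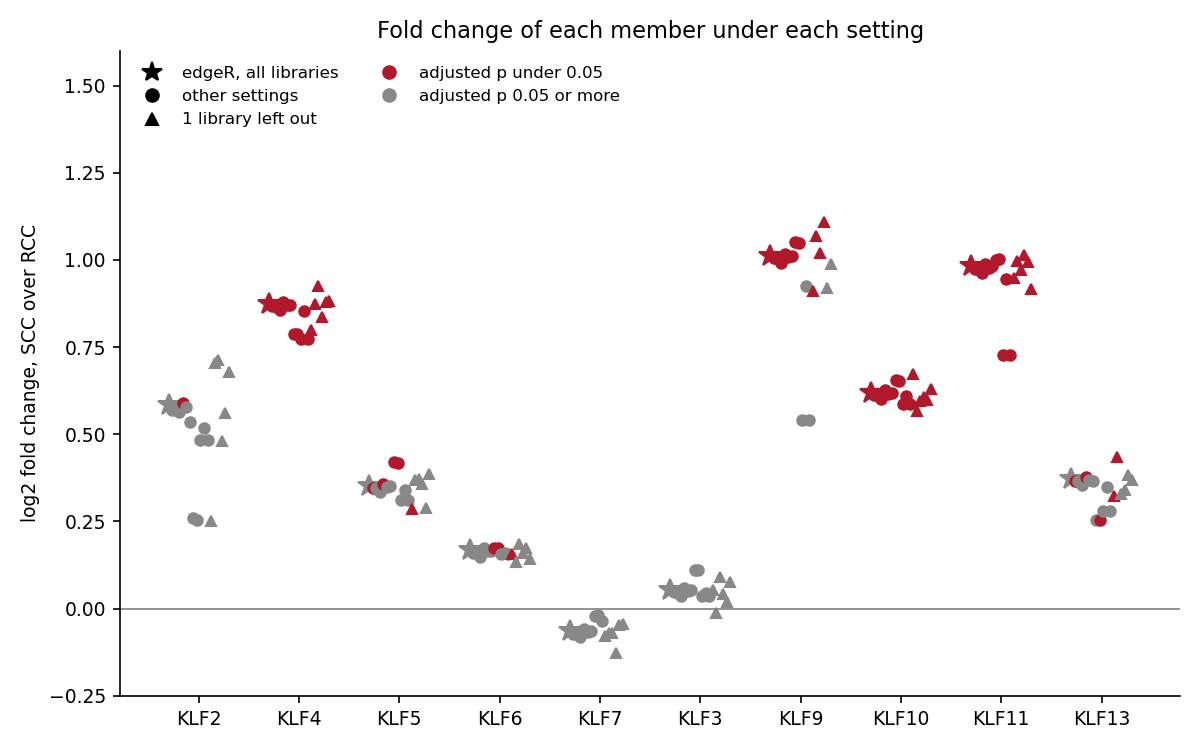
Log2 fold change of each member (SCC over RCC) in the edgeR fit of all libraries (star), in the other settings (circles) and with 1 library left out (triangles), red where the adjusted p is under 0.05. KLF4, KLF10 and KLF11 are red throughout, KLF9 turns grey in 5 of 17 alternatives, and KLF2 drops to 0.25 in 1 left-out fit and to 0.26 with the GC offset.

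By level per length, KLF6 and KLF10 dominated the set in both groups. KLF6 was at 37.1 ± 1.23 FPKM in SCC and 33.2 ± 0.81 in RCC, and KLF10 at 31.0 ± 2.22 and 20.3 ± 0.46 (SD, n = 3). In SCC the order went on with KLF2 (16.1 ± 5.56 FPKM), KLF4 (11.9 ± 1.04) and KLF5 (11.1 ± 0.77), whose neighbours overlapped in their libraries. KLF11 (4.10 ± 0.15 FPKM), KLF3 (3.97 ± 0.28) and KLF13 (3.97 ± 0.38) overlapped likewise. KLF9 (1.65 ± 0.19 FPKM) and KLF7 (0.982 ± 0.011) were the lowest.

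In RCC every member was separated from its neighbours: after KLF10 came KLF2 (10.9 FPKM, 9.46 to 12.4 over its libraries), KLF5 (8.72 ± 0.59), KLF4 (6.51 ± 0.24), KLF3 (3.85 ± 0.15), KLF13 (3.09 ± 0.10), KLF11 (2.08 ± 0.15), KLF7 (1.03 ± 0.07) and KLF9 (0.824 ± 0.10). KLF9 and KLF7 thus changed places at the bottom of the order. KLF11 stood below KLF3 and KLF13 in RCC and level with them in SCC.

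Summed over the 10 members, FPKM was 128.5, 120.4 and 116.5 in the SCC libraries and 88.7, 90.3 and 92.4 in RCC. KLF6 made up 30.5 ± 1.37% of that sum in SCC and 36.7 ± 1.44% in RCC (SD, n = 3 each), and its part was lower in every SCC library than in any RCC library. KLF10 made up 22.2, 27.3 and 27.3% in SCC and 22.7, 22.1 and 22.5% in RCC, where SCC replicate 1 fell within the RCC range. The KLF4 part was 9.73 ± 0.37% in SCC and 7.20 ± 0.17% in RCC, and the KLF11 part 3.37 ± 0.14% and 2.31 ± 0.22% (SD, n = 3 each).

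**Figure D3:**
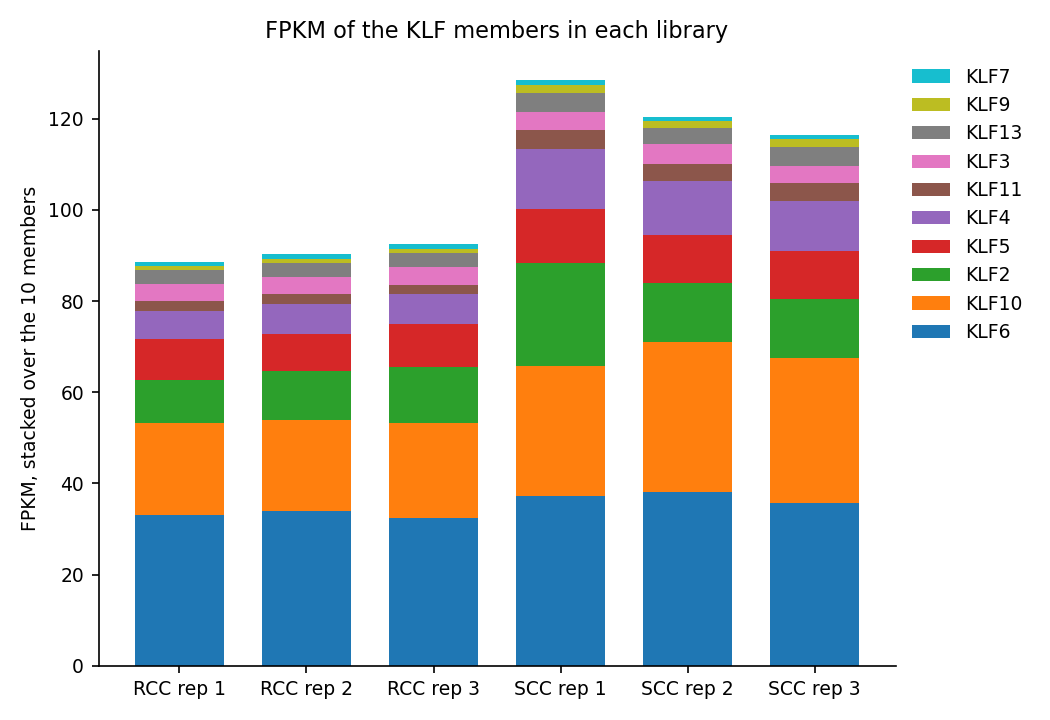
FPKM of the 10 members stacked for each of the 6 libraries, as deposited, largest at the bottom. The RCC stacks reach 88.7 to 92.4 and the SCC stacks 116.5 to 128.5, with a KLF6 block of 37.1 in SCC and 33.2 in RCC on average and larger KLF10 and KLF4 blocks in SCC.

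The rest of the family, KLFs outside the set and the SP factors that share the zinc-finger domain, held no called gene. Of 17 listed, 10 were tested, and 0 were called higher or lower by edgeR, by DESeq2 or by limma on FPKM. Before adjustment, p was under 0.05 for 1 that was higher (KLF16) and 3 that were lower (SP1, SP3 and SP4). Their median log2 fold change was -0.16, beside 0.48 for the members, a contrast that was not tested as a set. The members and lists were chosen with earlier results of these data known, so the contrast is not independent of that choice.

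KLF16, a SIN3-recruiting repressor related to KLF9 and KLF13, had 33.0, 24.4 and 25.1 FPKM in SCC and 19.6, 21.2 and 24.4 in RCC. As for KLF2, SCC replicate 1 was the high library, and the log2 fold change of 0.35 (edgeR adjusted p = 0.164) was -0.04 with the GC offset (adjusted p = 0.825). KLF12, a CtBP-recruiting repressor close to KLF3, was at 1.68 and 1.48 mean FPKM in SCC and RCC (log2 0.18, edgeR adjusted p = 0.319).

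SP1, the general activator of GC-box promoters, was at 12.8, 11.4 and 12.1 FPKM in SCC and 14.6, 14.5 and 14.2 in RCC, below RCC in every SCC library. Its log2 fold change of -0.24 missed the threshold (edgeR adjusted p = 0.106) and passed it with the GC offset, at -0.22 (adjusted p = 0.0341), and without SCC replicate 1, at -0.29 (adjusted p = 6.6e-04). SP3 (log2 -0.16, adjusted p = 0.247) and SP4 (log2 -0.40, adjusted p = 0.108) also had negative estimates that missed it. Log2 fold change was 0.27 for SP2 (adjusted p = 0.257), 0.33 for SP5 (adjusted p = 0.447; -0.04 with the GC offset) and -0.15 for SP6 (adjusted p = 0.577). KLF18 and SP9 had 0 counts in all 6 libraries.

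**Figure D4:**
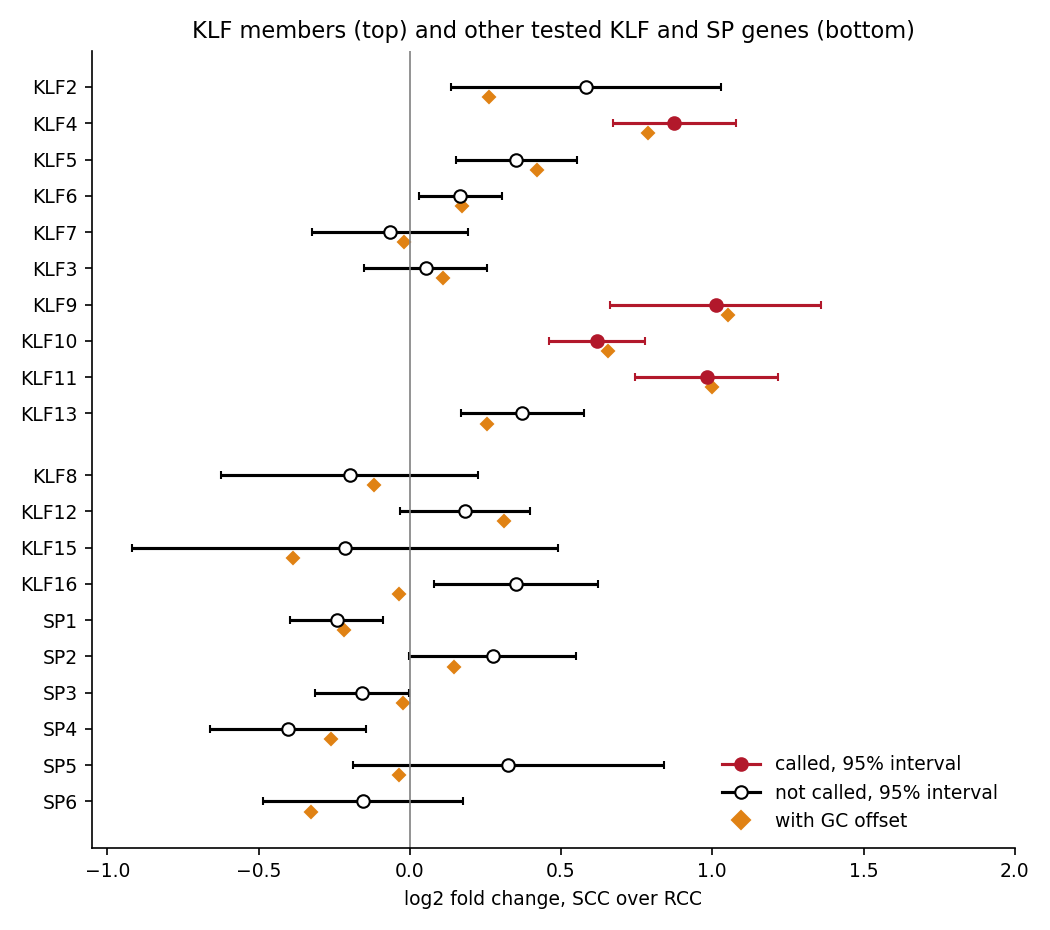
Log2 fold change (SCC over RCC) with its 95% interval for the 10 members (top) and the 10 other tested KLF and SP genes (bottom), filled where called, with the GC offset estimate as a diamond. The called members KLF4, KLF9, KLF10 and KLF11 lie between 0.62 and 1.01, and the GC-rich KLF2, KLF16 and SP5 move left with the offset.

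Grouped by cofactor over members and relatives together, the SIN3-recruiting repressors KLF9, KLF10, KLF11, KLF13 and KLF16 had 3 of 5 called higher. Over all tested genes that share was 1.69%. Their median log2 fold change was 0.62 (0.65 with the GC offset). All 5 had SCC above RCC without overlap in CPM, as had 14.4% of tested genes. KLF16 was only just apart, with 72.5 CPM in its lowest SCC library and 72.4 in its highest RCC library. The activators KLF2, KLF4, KLF5, KLF6 and KLF7 had 1 of 5 called higher and a median of 0.35 (0.26 with the GC offset). Of these, 4 had SCC above RCC without overlap. The CtBP-recruiting repressors KLF3, KLF8 and KLF12 had 0 of 3 called (0 at an unadjusted p under 0.05, and 0 by DESeq2). Their median was 0.05 (0.11 with the GC offset), and 1 had SCC above RCC without overlap. The contrast between these groups was not tested.

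Genes that act on KLFs were mostly not called. MEF2 factors, activated by the kinase ERK5 (MAPK7), drive KLF2 and KLF4 in endothelium. Of 8 genes of that route 7 were tested and 0 called by edgeR, with 3 higher at an unadjusted p under 0.05 and 2 called higher by DESeq2, and a median log2 fold change of 0.21 (0.09 with the GC offset). MEF2D had 12.9, 10.5 and 10.4 FPKM in SCC and 8.88, 8.26 and 8.09 in RCC. Its groups did not overlap and its log2 fold change was 0.43 (edgeR adjusted p = 0.0514). MAPK7 was at 0.51 (adjusted p = 0.0801). With the GC offset these passed at 0.29 (MEF2D, adjusted p = 0.0107) and 0.32 (MAPK7, adjusted p = 0.0269).

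Corepressors and coactivators of KLFs (among them CtBP, SIN3, histone deacetylases and p300) had 12 tested and 0 called by edgeR or DESeq2, with 2 higher at an unadjusted p under 0.05. Their median was 0.00, as over all genes. Among 10 ubiquitin ligases and deubiquitinases reported to act on KLF proteins, 1 was higher, beside 1.69% of all tested genes. FBXO32 (atrogin-1), an F-box protein reported to target KLF4, was at 1.18, 1.16 and 1.48 FPKM in SCC and 0.554, 0.675 and 0.602 in RCC, a log2 fold change of 1.07 (edgeR adjusted p = 0.0041). The median of the 10 was -0.04.

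KLF10 and KLF11 respond to TGF-beta, and of 9 ligands, receptors and SMADs tested 1 was higher and 0 lower. Over all tested genes the shares were 1.69% and 0.378%. SMAD7, the inhibitory SMAD that KLF10 and KLF11 are reported to repress, was at 6.11, 4.60 and 4.83 FPKM in SCC and 2.34, 2.67 and 2.78 in RCC. The groups were far apart, with a log2 fold change of 1.01 (edgeR adjusted p = 0.0017). The median of the 9 was 0.12, and with the GC offset TGFB2 (log2 0.25, adjusted p = 0.0108) and TGFBR1 (log2 0.30, adjusted p = 0.0096) also passed.

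KLF9 is a glucocorticoid target, and of the 8 tested genes of the glucocorticoid receptor list, KLF9 itself included, 5 were higher and 0 lower, with a median of 0.66. Over all tested genes 1.69% were called higher and 0.378% lower. Both the GC offset and the fit without SCC replicate 1 called 6, adding ERRFI1, beside 3.45% and 3.93% of the genes tested there. The clock gene PER1 rose by a log2 of 1.30 (edgeR adjusted p = 3.5e-04), the phosphatase DUSP1 by 0.97 (adjusted p = 1.5e-04), the transcriptional regulator TSC22D3 (GILZ) by 0.68 (adjusted p = 0.0386) and the kinase SGK1 by 0.63 (adjusted p = 0.0017). FKBP5, a widely used marker of glucocorticoid induction, was not among them, at 4.97, 5.19 and 5.46 FPKM in SCC and 6.25, 6.15 and 5.98 in RCC (log2 -0.23, edgeR adjusted p = 0.127). For the receptor NR3C1 it was 0.06 (adjusted p = 0.568). No hormone treatment is named for either group.

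Of 19 genes reported in other cells as KLF targets, 16 were tested, 3 were higher and 0 lower, with a median of 0.18 (0.07 with the GC offset). Over all tested genes 1.69% were called higher, 3.45% with the GC offset and 3.93% without SCC replicate 1. With the GC offset 4 were called higher, adding TGFBR1. The fit without SCC replicate 1 called 5, adding TGFBR1 and LGALS3. CDKN1A, the p21 cell cycle inhibitor induced by KLF4 and KLF6, was at 15.5, 15.1 and 15.8 FPKM in SCC and 9.48, 9.48 and 10.0 in RCC (log2 0.69, edgeR adjusted p = 7.5e-04). ATF3, a stress-induced bZIP factor, was at 5.79 and 0.819 mean FPKM (log2 2.81, adjusted p = 2.3e-06). The third was SMAD7.

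Immediate early genes, the group that includes FOS, EGR1 and JUNB, were mostly higher in SCC, beside 4 of the 10 members. Of 14 tested 12 were higher and 0 lower, with a median log2 fold change of 1.56. Their summed FPKM was 527.5 to 700.1 in SCC and 265.3 to 279.0 in RCC. The log2 fold change was 3.12 for FOS (edgeR adjusted p = 4.1e-08) and 1.88 for EGR1 (adjusted p = 2.6e-05). The called genes of the list ran from 0.74 (IER3) to 4.95 (FOSB), and the called KLFs from 0.62 to 1.01, so the ranges overlapped. NR4A1 (log2 1.15, adjusted p = 0.107) and BTG2 (log2 -0.02, adjusted p = 0.966) were the genes not called. ATF3 and DUSP1 stand in this list and in a list above. Any link between the differences in this list and those of the members was not tested.

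**Figure D5:**
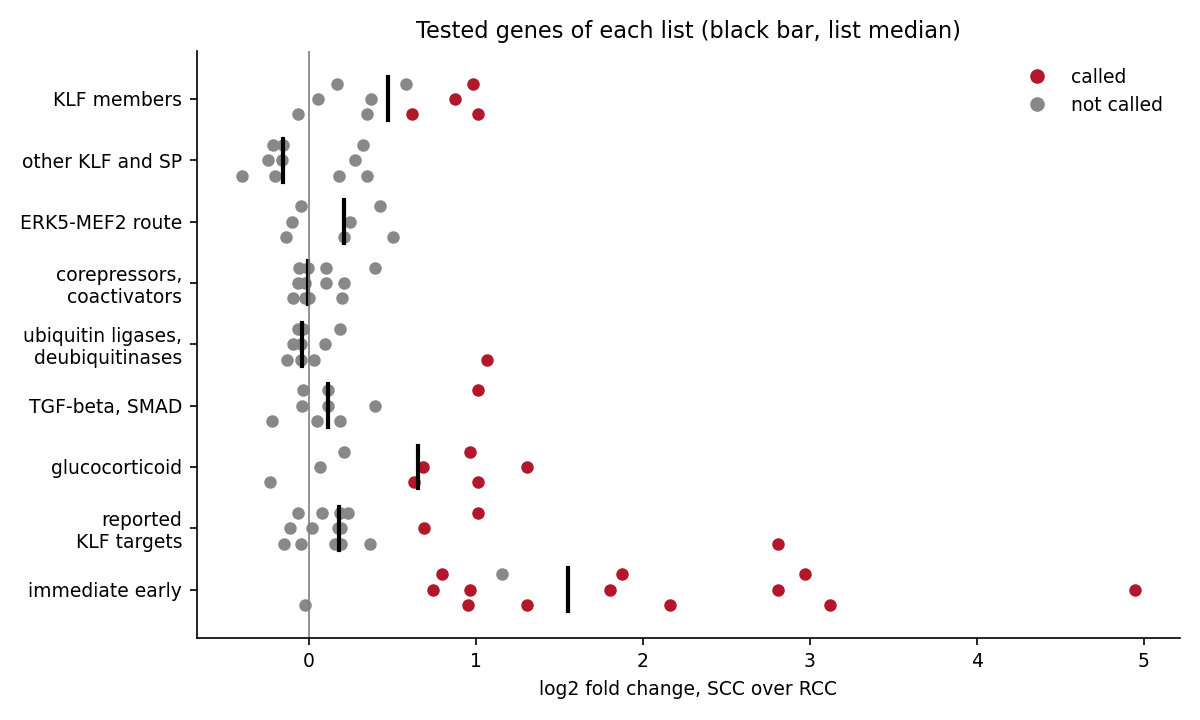
Log2 fold change (SCC over RCC) of each tested gene by list, cell type markers left out, 1 point per gene, red where the edgeR adjusted p is under 0.05, with the list median as a black bar. The medians run from -0.16 in the other KLF and SP genes to 1.56 in the immediate early genes, with the KLF members at 0.48.

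For each called member the 3 non-member genes with the most similar profile were taken by Pearson r of log2 CPM, with 0.5 added to each count, over the 6 libraries, among tested genes that averaged 5 CPM or more where they were higher. These r values are descriptions: all points share the same libraries and the 2-group split. KLF4 was most like MAML2 (r = 0.999), HTRA1 (r = 0.999) and SNAI1 (r = 0.999). Log2 fold change was 1.44 for SNAI1, a repressor of E-cadherin (edgeR adjusted p = 3.8e-04), 0.40 for HTRA1 (adjusted p = 0.0439) and 0.19 for MAML2 (adjusted p = 0.249). KLF11 was most like ATF3 (r = 0.998), PSAP (r = 0.998) and TSPYL2 (r = 0.997).

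KLF10 was most like CSF2 (r = 0.997), TSC22D1 (r = 0.996) and BCL6 (r = 0.994), with log2 fold changes of 0.68 (edgeR adjusted p = 0.0574), 0.32 (adjusted p = 0.0219) and 0.36 (adjusted p = 0.0969). KLF9 was most like the mRNA export factor NXF1 (r = 0.995, log2 0.37, adjusted p = 0.0201), DCAF11 (r = 0.993) and STS (r = 0.993). DCAF11 (log2 0.12, edgeR adjusted p = 0.341) and STS (log2 0.21, adjusted p = 0.194) were not called.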

How the data were processed

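Total RNA from 3 SCC and 3 RCC samples was sequenced. Whole-number gene counts and FPKM values were deposited by the authors. Per the submitters' processing notes, HISAT2 2.0.5 and featureCounts 1.5.0-p3 were used; build, annotation and strand setting are not given in the sources used here. Every gene ID matched GENCODE 29 (GRCh38), whose positions are printed; 27 names turned into dates were restored by ID. The deposited FPKM came out as count per kilobase scaled by 0.983 to 1.02 times the library's summed count.

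Counts were filtered (filterByExpr, minimum count 10), scaled by TMM and tested with edgeR 4.0.16 (quasi-likelihood, two-sided, group alone) in R 4.3.3, with Benjamini-Hochberg adjustment over 15881 genes; called means an adjusted p under 0.05. The script was tested on simulated data. Alternatives used DESeq2 1.42.0, limma 3.58.1 with trend on log2(FPKM + 1) or log2(FPKM + 0.1), other scalings and filters, a lowess offset for GC content (span 0.3), a replicate block, and each library left out. With 3 against 3, an exact permutation test cannot go below p = 0.1, so none is given. The members and lists were chosen with earlier results of these data known. Named genes are all members; of each list, every called gene or else the gene of smallest p; other KLF and SP genes at a mean of at least 1 FPKM; and the 3 genes most like each called member. 1 gene under this rule is not reported here. Genes named beyond this rule (FKBP5, NR3C1, MAPK7, TGFB2, TGFBR1, LGALS3, ERRFI1, NR4A1 and BTG2) were chosen after their values were seen.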

Additional observations from a re-analysis of the deposited data

How the results depend on the processing

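KLF4, KLF10 and KLF11 were called higher in all 17 alternatives. The count of members called higher, 4, was 7 with every gene of at least 1 count tested. It was 7 with the replicate block and GC offset together, and 3 to 7 with 1 library left out (7 without SCC replicate 1). Shares over all genes were counted only for the edgeR fit of all libraries, the GC offset and the fit without SCC replicate 1. With every gene tested, KLF2 passed at a log2 fold change of 0.59. The filtered edgeR fit gave 0.58 and did not call it (edgeR adjusted p = 0.162). Members that passed only in an alternative were, beside the fits with 1 library left out, with DESeq2 KLF5 (log2 0.35, adjusted p = 0.0465) and KLF13 (0.36, 0.0433); with every gene tested, KLF2 (0.59, 1.5e-05), KLF5 (0.36, 0.0181) and KLF13 (0.38, 0.0144); with the GC offset, KLF5 (0.42, 0.0101) and KLF6 (0.17, 0.0389); and with the replicate block and GC offset, KLF5 (0.42, 5.5e-04), KLF6 (0.17, 0.0250) and KLF13 (0.25, 0.0455). KLF9 was lost in limma on log2(FPKM + 1) at 0.54 (0.0678; 0.244 with no filter) and on log2(FPKM + 0.1) at 0.92 (0.0840). With 1 library left out, log2 fold changes ran from -0.013 to 0.092 for KLF3 (reversed, -0.013 without SCC replicate 2), 0.29 to 0.39 for KLF5, 0.13 to 0.19 for KLF6, 0.91 to 1.11 for KLF9 and 0.32 to 0.43 for KLF13 (passing without SCC replicate 1, and without SCC replicate 2 at 0.43, 0.0214). Over the other lists, without the members and the cell type markers and with shared genes counted once, 18 genes were higher and 0 lower. The count higher was 8 in limma with no filter and 14 to 24 with 1 library left out. For the count lower the range was 0 to 1. The 1 gene was SP1, with the GC offset, with the replicate block and GC offset, and without SCC replicate 1. The replicate block alone gave 4 members and 21 list genes higher; no pairing of the numbers was found, since deviations of same-numbered libraries correlated at -0.009, 0.018 and -0.073, and 1 of the 3 SCC libraries correlated best with its own number. Apart from the construction of the settings, the cause was not tested. KLF9 drew 75 to 263 counts a library, which limits its precision.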
